A study of Homo sapiens with 66 samples.

Results

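The AP-1 transcription factors described here are 9 genes, FOS, FOSB, FOSL1, FOSL2, JUN, JUNB, JUND, ATF3 and BATF, chosen by gene symbol out of 57992 gene identifiers counted in 11 acute myeloid leukemia (AML) cell lines. All 9 were found in the files. In build GRCh38 (gencode release 44) FOS lies at chr14:75278826-75282230, FOSB at chr19:45467995-45475179, FOSL1 at chr11:65892049-65900573, FOSL2 at chr2:28392448-28417317, JUN at chr1:58776845-58784048, JUNB at chr19:12791486-12793315, JUND at chr19:18279694-18281622, ATF3 at chr1:212565334-212620777 and BATF at chr14:75522455-75546993. The AML cell lines were THP-1, OCI-AML3, OCI-AML2, F-36P, NB-4, HL-60, MV-4-11, KASUMI-1, NOMO-1, MONO-MAC-6 and MOLM-13, each an established line from a cell bank. Each line was left untreated or given etoposide, a topoisomerase II poison used in leukemia therapy, for 24 hours. The study's RNA-seq methods do not say whether untreated cells received vehicle. The etoposide concentration was the IC50 of that line, so doses differed between lines and a difference between lines cannot be told apart from a difference in dose. Each of the 22 groups held 3 RNA-seq libraries, 66 in all. Cells of several wells were pooled for each RNA, and the study's methods describe its experiments in general as biological replicates. The labels do not say for these libraries that those of a group came from separate cultures, and if they did not, the p-values measure only the spread between these libraries, which may be technical. The study set aside its etoposide-treated OCI-AML2 libraries after a check of the raw reads, and that line is therefore given apart from the other 10. The question was how the basal level and the etoposide change of each AP-1 gene differed from line to line.

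AP-1 is a dimer of proteins that bind DNA through a basic leucine zipper. Jun proteins (JUN, JUNB, JUND) pair with each other or with Fos proteins (FOS, FOSB, FOSL1, FOSL2), and Fos proteins need a Jun partner to bind, while ATF3 and BATF join Jun proteins and are often described as modulators or repressors. Stress-activated kinases such as JNK phosphorylate JUN, which can then raise transcription of its own gene, and many AP-1 genes are immediate-early genes whose short-lived transcripts rise soon after a stimulus. In myeloid cells AP-1 is known for its part in monocyte and macrophage differentiation and in cytokine expression. AP-1 dimers bind the TPA response element, TGANTCA, and dimers with an ATF partner bind the cyclic AMP response element, TGACGTCA.

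The stretches upstream of JUN, ATF3, FOS and JUND are printed because the letters searched were found in them, and not for the size of their responses. The 250 bases before each start site in the RefSeq table were searched on both strands, and the sequences below end before the first base that gencode release 44 assigns to the gene. The capitals mark TGACATCA in JUN and ATF3, TGACGTTT in FOS and TGACGTCA in JUND. TGACATCA differs from the cyclic AMP response element by 1 base, and TGACGTTT shares its first 6 letters. These letter strings were chosen with the JUN and FOS promoters in view, so finding TGACATCA in JUN and TGACGTTT in FOS was fixed by the choice. Other variants were not searched. The FOSB and FOSL2 windows, not printed, each hold one that differs from TGACGTCA by 1 base. The printed JUND sequence also holds such a variant, CGACGTCA, which is not in capitals. The sequences read 5′ to 3′ on the strand of the gene, in build GRCh38.p14.
JUN promoter, chr1:58784049-58784297, minus strand: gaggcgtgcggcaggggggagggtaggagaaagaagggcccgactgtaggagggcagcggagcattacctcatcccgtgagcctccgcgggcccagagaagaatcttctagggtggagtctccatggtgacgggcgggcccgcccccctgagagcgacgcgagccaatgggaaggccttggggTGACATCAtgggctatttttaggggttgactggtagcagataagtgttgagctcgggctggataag
ATF3 promoter, chr1:212565157-212565333, plus strand: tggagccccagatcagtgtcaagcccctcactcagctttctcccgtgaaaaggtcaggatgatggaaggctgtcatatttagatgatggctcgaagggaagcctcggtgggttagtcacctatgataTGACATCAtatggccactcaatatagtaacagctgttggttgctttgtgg
FOS promoter, chr14:75278578-75278825, plus strand: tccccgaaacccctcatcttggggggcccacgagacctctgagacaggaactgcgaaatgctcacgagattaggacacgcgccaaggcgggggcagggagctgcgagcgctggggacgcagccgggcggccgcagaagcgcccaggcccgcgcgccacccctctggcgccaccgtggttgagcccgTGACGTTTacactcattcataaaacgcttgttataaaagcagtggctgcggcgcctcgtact
JUND promoter, chr19:18281623-18281872, minus strand: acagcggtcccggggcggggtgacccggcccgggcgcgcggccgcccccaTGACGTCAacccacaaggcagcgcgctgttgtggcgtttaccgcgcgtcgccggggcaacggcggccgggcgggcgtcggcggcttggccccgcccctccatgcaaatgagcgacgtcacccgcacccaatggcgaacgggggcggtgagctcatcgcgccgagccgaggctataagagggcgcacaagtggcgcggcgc

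TGACATCA stood from 67 to 60 bases before the start of JUN, the gene it was taken from, and from 123 to 116 bases before the more distal of the 2 ATF3 starts. It was in 2.37% of all 35116 promoter windows of the same length. TGACGTCA stood from 200 to 193 bases before the start of JUND, in 1.65% of all windows, and TGACGTTT from 64 to 57 bases before the start of FOS, in 0.419%. The letters TGANTCA were in 0 of the 9 windows searched for 8 of the genes, and in 6.57% of all windows. A match is a description of letters and no measurement of binding.

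By gencode 44, FOSB on chromosome 19 lies within ERCC1, and JUNB within HOOK2, on the opposite strand in both cases, and FOSL2 on chromosome 2 overlaps an antisense gene, FOSL2-AS1, and a second noncoding gene on its own strand. Whether the counting used the strand is not given in the sources used here, so FOSB, JUNB and FOSL2 values may hold reads of those neighbours or lack reads shared with them. The other 6 genes overlapped no other gene.

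The libraries held 17997404 to 24101670 reads assigned to genes, with a median of 20241014. Mitochondrial genes took 3.49% to 6.58% of the reads in untreated libraries and 3.62% to 7.44% in etoposide-treated ones. Of the genes described here, FOSB had the fewest reads, with a median of 45.5 per library, and FOSL2 the most, with 3445. CDKN1A, a p53 target that arrests the cell cycle, was induced in 10 of 10 lines (log2 fold change 1.86 to 5.46), whereas MDM2, a p53 target and inhibitor, was called in MOLM-13, MV-4-11 and OCI-AML3. In OCI-AML2, CDKN1A stayed under the 2-fold minimum, with 44.7, 48.1 and 44.7 CPM (reads of the gene scaled to the TMM-adjusted library size) untreated and 79.99, 73.1 and 75 CPM with etoposide (log2 fold change 0.73, SE 0.06, adjusted p = 0.000289). The myeloid genes CD33 and SPI1 stood at no less than 68.0 and 94.2 CPM in every group mean. The other listed myeloid markers were low in some groups. Their lowest group means were 1.01 CPM for MPO, 2.71 for LYZ, 0.569 for CEBPA, and 0 for ELANE, AZU1 and PRTN3. All of these but LYZ had those values in untreated F-36P. The erythroid genes GATA1 and KLF1 were highest in F-36P, an erythroid leukemia line. The summed level of 5 monocytic markers (CD14, CSF1R, CD68, ITGAM, FCGR1A) was higher in all 3 etoposide-treated libraries than in all 3 untreated ones in 10 of 10 lines. Among single genes, 22.5% in THP-1 to 37.8% in F-36P, the lowest and highest share, showed that pattern. Of 37 pairs of these markers and lines tested, 20 were induced and 2 repressed, where 11.1% of all pairs of genes and lines were induced and 3.96% repressed. Their untreated sums ran from 4.03 CPM in HL-60 to 278 CPM in THP-1, and their etoposide sums from 7.57 CPM in HL-60 to 446 CPM in THP-1. The 3 fibroblast markers (COL1A1, COL1A2, COL3A1) also summed higher in 10 of 10 lines, with 10 of 12 pairs induced, 0 repressed and no group mean above 9.53 CPM. Untreated, they summed to no more than 1.72 CPM in any of these lines and to 0 in NB-4. Pairs with so few untreated reads could enter the test through the etoposide libraries alone. Their calls are therefore partly fixed by the read minimum. The same limit applies to pairs of the other marker lists with few untreated reads. Of the 8 myeloid markers 6 of 74 pairs were induced and 13 repressed, of the 5 erythroid ones 2 of 21 and 3, of the T and B cell ones 11 of 25 and 1, and of the epithelial ones (EPCAM, KRT8, KRT18) 8 of 15 and 0. The part of any marker list in the AP-1 changes was not tested, and in bulk RNA a change in the mix of cells and a change in RNA per cell cannot be told apart.

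AP-1 genes were induced by etoposide more often than repressed. A gene was called induced or repressed when its false discovery rate (FDR) in edgeR was below 0.05 and its fold change above 2, tested within each line over all genes with enough reads. Of 90 gene and line pairs in the 10 lines, 89 had enough reads, and of these 35 (39.3%) were induced and 5 (5.62%) repressed. Over all genes in the same 10 lines, 15829 of 143149 pairs (11.1%) were induced and 5662 (3.96%) repressed. The Jun genes accounted for 15 inductions in 30 pairs, the Fos genes for 12 in 40 and ATF3 and BATF together for 8 in 19. The plot of changes shows that ATF3 and JUN moved in most lines, whereas FOS and FOSB moved far in some lines and the other way or not detectably in others.

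By line, AP-1 induction was widest in F-36P, HL-60 and NB-4. In F-36P 6 of 8 tested genes were induced, against 24.3% of all genes in that line, which had the broadest response of the series. In HL-60 6 of 9 were induced, against 5.34% of all genes, and in NB-4 5 of 9, against 13.2%. MONO-MAC-6 and NOMO-1 each had 4 of 9, against 8.53% and 8.34%, and OCI-AML3 and THP-1 each had 3 of 9, against 7.18% and 6.38%. KASUMI-1 had 2 induced against 14.6% and 2 repressed against 6.52% of all genes, and MOLM-13 had 2 induced against 8.59% and 1 repressed against 3.37%. In THP-1 1 of 9 was repressed, against 3.46%. No AP-1 gene was called repressed in F-36P (6.67% of all genes), HL-60 (1.24%), MONO-MAC-6 (4.47%), NB-4 (4.82%), NOMO-1 (4.43%) or OCI-AML3 (1.36%) by edgeR. MV-4-11 had 0 of 9 induced by edgeR, where 12.5% of all genes were, and 1 repressed, where 2.63% were. With 9 genes, a count of 0 induced lies near the share of all genes. DESeq2 and the edgeR exact test also called 0 induced in MV-4-11, and 3 of its AP-1 genes were higher at an unadjusted p below 0.05. Under library size alone 1 gene, ATF3, was called induced there. In OCI-AML2 edgeR, its exact test and DESeq2 called 0 of 9 AP-1 genes and 0 of 13604 genes (0%) in either direction. No AP-1 gene reached an unadjusted p below 0.05 there, and 456 of all genes did. All 9 log2 fold changes in OCI-AML2 lay between -0.15 and 0.10.

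These shares depend on the scaling to some extent. With library size alone in place of TMM factors, the median log2 fold change of all genes rose from 0.09 to 0.34 in F-36P, from 0.03 to 0.20 in KASUMI-1 and from 0.01 to 0.21 in NB-4, and the induced share of all calls rose from 69.1% to 81.1% in KASUMI-1 and from 73.2% to 85.7% in NB-4. No called AP-1 gene changed direction under that scaling or under RLE factors, and 4 of the 89 pairs, all uncalled, did under library size alone. The AP-1 inductions went from 0 to 1 in MV-4-11 and from 4 to 5 in MONO-MAC-6 under library size alone, and the repressions from 2 to 1 in KASUMI-1.

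ATF3, a stress-induced member whose transcript is a common readout of genotoxic and proteotoxic stress, was higher with etoposide in every one of the 10 lines. All 3 etoposide-treated libraries were above all 3 untreated ones in 10 of 10 lines, a pattern that 22.5% of all genes showed in THP-1 and 37.8% in F-36P, the lowest and highest share. ATF3 passed both thresholds in 8 lines. In NOMO-1 its level went from 4.47, 5.01 and 3.94 CPM untreated to 94.4, 136 and 74 CPM with etoposide. This was a 22.6-fold rise (log2 fold change 4.50, SE 0.22, adjusted p = 4.42e-08), the steepest among the AP-1 genes in these lines. In THP-1 it went from 2.25, 2.22 and 1.97 CPM to 47.9, 54 and 41.9 CPM (log2 fold change 4.48, SE 0.17, adjusted p = 1.6e-11), so that a line with little ATF3 at rest reached a level near that of F-36P and NB-4.

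In HL-60, which had the most ATF3 at rest, the level went from 8.4, 12.3 and 12.4 CPM to 141, 90.7 and 201 CPM (log2 fold change 3.71, SE 0.25, adjusted p = 6.85e-07). The 3 treated HL-60 libraries were far apart, but the lowest still stood well above the highest untreated one. F-36P rose from 3.95, 5.1 and 4.23 to 54.6, 50.4 and 52.6 CPM (log2 fold change 3.57, SE 0.15, adjusted p = 5.16e-07), with little spread. NB-4 rose from 4.78, 7.81 and 10.2 to 39.6, 49.9 and 52.2 CPM (log2 fold change 2.64, SE 0.19, adjusted p = 2.95e-08). OCI-AML3 started lowest, at 1.03, 1.42 and 1.15 CPM, and reached 6.64, 6.71 and 8.74 CPM (log2 fold change 2.61, SE 0.19, adjusted p = 2.35e-05). The 6.12-fold rise in OCI-AML3 ended below the untreated mean of HL-60. MONO-MAC-6 rose 3.08-fold from 8.22, 7.31 and 9.71 CPM to 26.9, 23.5 and 27.3 CPM (log2 fold change 1.62, SE 0.11, adjusted p = 1.35e-07).

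The smallest ATF3 responses were in KASUMI-1, MV-4-11 and MOLM-13. KASUMI-1 had 4.52, 4.57 and 4.11 CPM untreated and 10.2, 9 and 8.51 CPM with etoposide (log2 fold change 1.07, SE 0.13, adjusted p = 8.48e-05), and this call was lost without its etoposide replicate 1, at a log2 fold change of 0.99. MV-4-11 had 6.56, 7.41 and 5.79 CPM untreated and 12.6, 12.4 and 12.2 CPM with etoposide (log2 fold change 0.92, SE 0.12, adjusted p = 5.24e-07), below the 2-fold minimum although no library overlapped. It was called induced there under library size alone, without replicate 2 of both conditions and without untreated replicate 2, at up to 1.04. MOLM-13 had 5.5, 5.29 and 7.65 CPM untreated and 8.51, 9.19 and 8.25 CPM with etoposide (log2 fold change 0.49, SE 0.15, adjusted p = 0.0202). MOLM-13 was the least responsive of the 10 lines for this gene, and in OCI-AML2 the groups overlapped at 2.47, 1.83 and 2.75 CPM untreated and 2.36, 3.04 and 2.13 CPM with etoposide.

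JUN, the transactivating Jun protein and the main JNK substrate, was induced in 8 lines and repressed in 1. The steepest rise was in THP-1, from 10.8, 12 and 16.1 CPM untreated to 109.7, 136 and 110.3 CPM with etoposide (log2 fold change 3.19, SE 0.16, adjusted p = 1.95e-10), a 9.13-fold change. In NOMO-1 it went from 21.8, 29.3 and 21.7 to 165, 229.6 and 149.7 CPM (log2 fold change 2.90, SE 0.17, adjusted p = 1.52e-07), a level like that of the treated MONO-MAC-6 libraries. HL-60 rose from 14, 22.6 and 21.4 to 91.3, 78 and 149 CPM (log2 fold change 2.46, SE 0.22, adjusted p = 6.92e-06). In THP-1, NOMO-1 and HL-60 the treated libraries lay clear of the untreated ones by a wide margin.

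JUN also rose about as far in lines with quite different resting levels. F-36P went from 4.28, 3.42 and 4.06 to 15.3, 17.8 and 24.9 CPM (log2 fold change 2.30, SE 0.21, adjusted p = 1.3e-05), and MONO-MAC-6 from 33.6, 37.3 and 40.3 to 162, 168 and 173 CPM (log2 fold change 2.17, SE 0.07, adjusted p = 4.95e-10). KASUMI-1 went from 14, 15.1 and 16.3 to 57.4, 80.6 and 58.3 CPM (log2 fold change 2.11, SE 0.15, adjusted p = 2.54e-06). OCI-AML3 went from 7.28, 7.08 and 6.7 to 26.4, 24.3 and 34.4 CPM (log2 fold change 2.01, SE 0.14, adjusted p = 2.34e-05). These 4 changes lay between 4.04-fold and 4.92-fold. In NB-4 the untreated libraries were spread over 19.8, 43.4 and 47.4 CPM, the treated ones held 82.4, 119 and 119.7 CPM, and the change was smaller (log2 fold change 1.54, SE 0.23, adjusted p = 3.45e-05).

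MV-4-11 and MOLM-13 did not follow the other lines for JUN. In MV-4-11 JUN had 5.83, 5.47 and 4.38 CPM untreated and 8.1, 8.01 and 8.81 CPM with etoposide (log2 fold change 0.67, SE 0.13, adjusted p = 0.000146), with no overlap but below the 2-fold minimum. In MOLM-13 it had 0.982, 2.03 and 3.56 CPM untreated and 0.774, 0.904 and 1.08 CPM with etoposide (log2 fold change -1.25, SE 0.42, adjusted p = 0.0286). The MOLM-13 groups overlapped, since the lowest untreated library lay among the treated ones, and the call was lost without untreated replicate 3 and without any of the 3 treated libraries, over a range of log2 fold changes from -1.36 to -0.71. The JUN change of MOLM-13 was nevertheless lower than the mean of the other 9 lines (difference -3.36, SE 0.45, adjusted p = 3.44e-08). JUN and ATF3 changes over the 10 lines had a Pearson r of 0.779, given as a description since lines were chosen for this panel and share no dose.

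**Figure D1:**
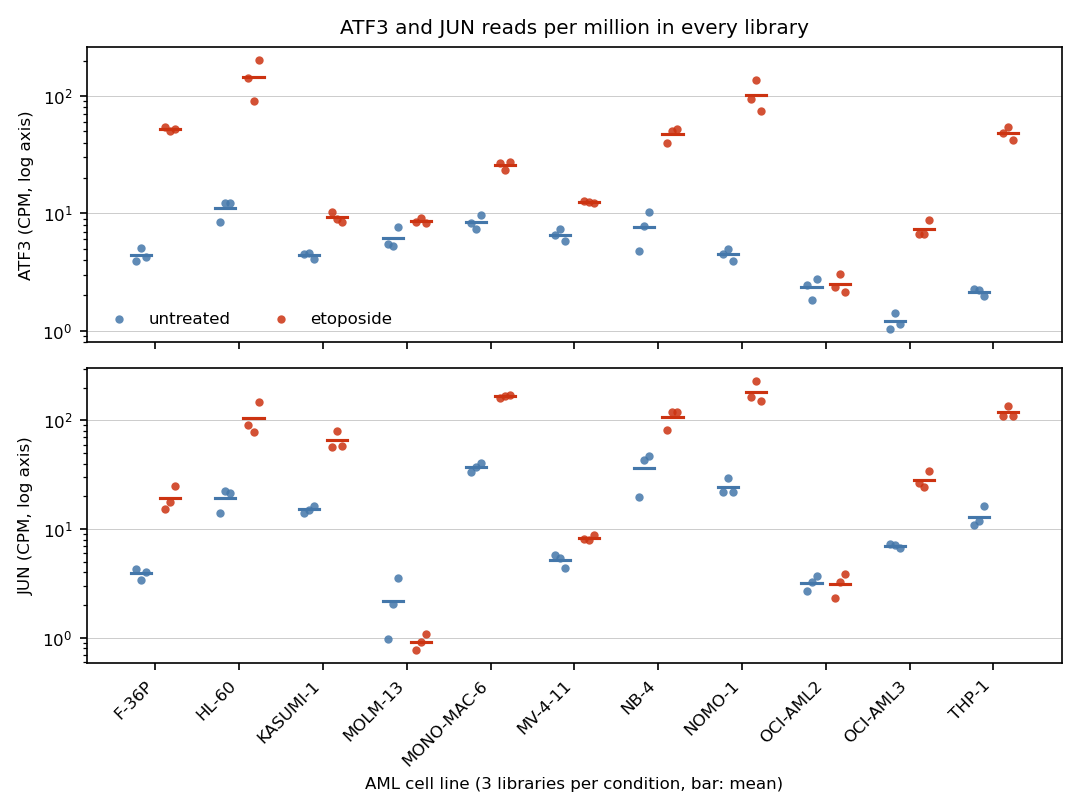
ATF3 (top) and JUN (bottom) in CPM on a log axis, by AML cell line, with 1 dot per library, blue for untreated and red for etoposide, and a bar at the mean of 3. ATF3 dots of the 2 conditions do not overlap in any line but OCI-AML2, and the JUN dots of the treated libraries lie higher in every line but MOLM-13 and OCI-AML2.

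JUNB and JUND, Jun proteins with weaker or opposing activity to JUN in many settings, changed less. JUNB was induced in NOMO-1, MONO-MAC-6 and F-36P. In NOMO-1 it went from 27.2, 26.9 and 29.8 to 75.4, 112 and 79.4 CPM (log2 fold change 1.67, SE 0.14, adjusted p = 1.93e-06), from the lowest resting level of the panel to a level above every untreated library. MONO-MAC-6 went from 37.7, 64.4 and 46.1 to 114, 134 and 132 CPM (log2 fold change 1.36, SE 0.15, adjusted p = 7.42e-06). F-36P went from 40.4, 35.1 and 28.3 to 60.1, 73.3 and 94.6 CPM (log2 fold change 1.14, SE 0.19, adjusted p = 0.00048), a call lost without replicate 3 of either condition, at 0.77 to 0.94. In the other 7 lines JUNB lay between log2 fold changes of -0.26 in NB-4 and 0.68 in HL-60.

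JUND, usually the most constant Jun gene, was induced in HL-60, NB-4, THP-1 and MONO-MAC-6, in none by much more than 2-fold. In THP-1 it went from 31, 40.3 and 39.97 to 66.7, 119 and 73.2 CPM (log2 fold change 1.22, SE 0.18, adjusted p = 7.49e-05), and in NB-4 from 27.7, 36.1 and 35.7 to 56.7, 74.8 and 88.9 CPM (log2 fold change 1.15, SE 0.15, adjusted p = 7.76e-06). HL-60 went from 34.3, 48.4 and 40.6 to 68, 81.2 and 125 CPM (log2 fold change 1.15, SE 0.19, adjusted p = 0.000504), and MONO-MAC-6 from 27, 43.3 and 40.7 to 70.9, 79.8 and 81.4 CPM (log2 fold change 1.06, SE 0.13, adjusted p = 2.74e-05). Each of these 4 calls was lost when a certain library was left out, namely THP-1 etoposide replicate 2, NB-4 etoposide replicate 3, HL-60 etoposide replicate 3 and MONO-MAC-6 untreated replicate 1, with log2 fold changes of 0.85 to 0.99. In F-36P, where 6 other AP-1 genes were induced, JUND had 148, 139.9 and 103 CPM untreated and 112, 125 and 150.3 CPM with etoposide (log2 fold change -0.01, SE 0.16, adjusted p = 0.945). JUNB and JUND deviated from their group means together (r = 0.861 over 66 libraries, on log2(CPM + 1)), and the cause was not tested.

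FOS, the prototype immediate-early gene, was induced in 5 lines, and the 3 lines with the largest rises had the lowest FOS means at rest. The resting level is the denominator of the fold change, so such a link is partly built in. KASUMI-1, not told apart from NB-4 at rest, had no FOS call. In F-36P FOS went from 0.902, 0.754 and 1.45 CPM to 8.87, 10.2 and 11.3 CPM (log2 fold change 3.28, SE 0.23, adjusted p = 3.6e-06). In NB-4 it went from 4.06, 4.58 and 8.02 CPM to 23.3, 34.6 and 29 CPM (log2 fold change 2.39, SE 0.21, adjusted p = 1.61e-07). HL-60 went from 1.04, 1.6 and 1.59 to 4.79, 5.05 and 6.1 CPM (log2 fold change 1.91, SE 0.22, adjusted p = 4.56e-05). These 3 lines rose 9.7-fold, 5.24-fold and 3.77-fold from some of the lowest resting levels, with no overlap between conditions.

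OCI-AML3 and MOLM-13 were the other 2 lines with a FOS call. MOLM-13 went from 32.8, 36.7 and 31.4 to 74.7, 73.6 and 72.7 CPM (log2 fold change 1.13, SE 0.08, adjusted p = 2.89e-06), with very close replicates. OCI-AML3 went from 24.3, 15 and 14.5 to 35, 43.4 and 40.2 CPM (log2 fold change 1.14, SE 0.19, adjusted p = 0.0019), a call lost without untreated replicate 3, at 0.96. NOMO-1 went from 20.8, 21.6 and 25.3 to 39.8, 40.8 and 31 CPM, a 1.65-fold change that passed the FDR but not the fold minimum (log2 fold change 0.72, SE 0.12, adjusted p = 0.00042). MOLM-13 thus had a FOS rise without a JUN rise.

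In the 3 lines with the most FOS at rest, no change was called. MONO-MAC-6 had 140.4, 118 and 66.2 CPM untreated and 81, 88.8 and 78.7 CPM with etoposide (log2 fold change -0.38, SE 0.19, adjusted p = 0.106), and the treated libraries lay within the wide untreated range. THP-1 had 66.7, 62.4 and 69.7 CPM untreated and 65.4, 80.5 and 66.5 CPM with etoposide (log2 fold change 0.09, SE 0.13, adjusted p = 0.604). MV-4-11 had 42.5, 41.3 and 43.1 CPM untreated and 38.6, 41.2 and 40.8 CPM with etoposide (log2 fold change -0.07, SE 0.07, adjusted p = 0.348). In MONO-MAC-6 and THP-1 JUN rose more than 4-fold in the same libraries. KASUMI-1 had 4.98, 9.2 and 3.01 CPM untreated and 7.83, 10.7 and 7.13 CPM with etoposide (log2 fold change 0.57, SE 0.33, adjusted p = 0.156), where untreated replicate 2 was the highest of its group, and without it the change was 1.07 and called induced.

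FOSB, a close relative of FOS with fewer reads than FOS in most lines, was induced in 5 lines, in 4 of which FOS was induced too, and repressed in 2 lines where FOS was not called. It rose most in F-36P, from 0.846, 0.464 and 0.724 to 8.96, 10.6 and 10.9 CPM, a 14.8-fold change (log2 fold change 3.89, SE 0.23, adjusted p = 1.66e-06). NB-4 went from 1.22, 1.91 and 1.89 to 7.92, 11.8 and 9.32 CPM (log2 fold change 2.53, SE 0.21, adjusted p = 1.08e-07). NOMO-1 went from 1.8, 1.29 and 2.16 to 5.32, 4.88 and 3.79 CPM (log2 fold change 1.42, SE 0.22, adjusted p = 0.000187). In these 3 lines FOSB started at no more than 2.16 CPM in any library. MOLM-13 went from 2.55, 3.16 and 2.53 to 6.02, 6.88 and 5.12 CPM (log2 fold change 1.13, SE 0.17, adjusted p = 0.000299). HL-60 went from 2.77, 3.77 and 3.01 to 5, 5.83 and 8.32 CPM (log2 fold change 1.01, SE 0.21, adjusted p = 0.0031), a change that stood just past the 2-fold minimum and was lost without untreated replicate 1, untreated replicate 3 or etoposide replicate 3, at 0.73 to 0.99. In MONO-MAC-6, where FOS was not called, FOSB had 4.44, 3.68 and 4.22 CPM untreated and 9.32, 7.81 and 6.51 CPM with etoposide (log2 fold change 0.94, SE 0.15, adjusted p = 0.000179), with no overlap, and it was called induced under library size alone and without etoposide replicate 3, at up to 1.08.

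FOSB fell in MV-4-11 and THP-1. In MV-4-11 it went from 4.62, 4.79 and 4.59 CPM to 1.18, 0.957 and 1.67 CPM (log2 fold change -1.88, SE 0.20, adjusted p = 3.94e-08). In THP-1 it went from 2.15, 1.39 and 2.23 CPM to 0.712, 0.739 and 0.492 CPM (log2 fold change -1.57, SE 0.31, adjusted p = 0.000836). In both lines all treated libraries lay below all untreated ones, as they did for 32.7% of all genes in MV-4-11 and 23.5% in THP-1. ATF3 was higher in the same libraries. KASUMI-1 had 1.93, 4.83 and 0.987 CPM untreated and 1.18, 1.95 and 0.828 CPM with etoposide (log2 fold change -0.98, SE 0.52, adjusted p = 0.134), with overlap, and it was called repressed without untreated replicate 3, at -1.35. The THP-1 values rested on 111 FOSB reads in the 3 untreated libraries together and 42 in the treated ones. FOSB and FOS changes over the 10 lines had a Pearson r of 0.804, as a description.

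**Figure D2:**
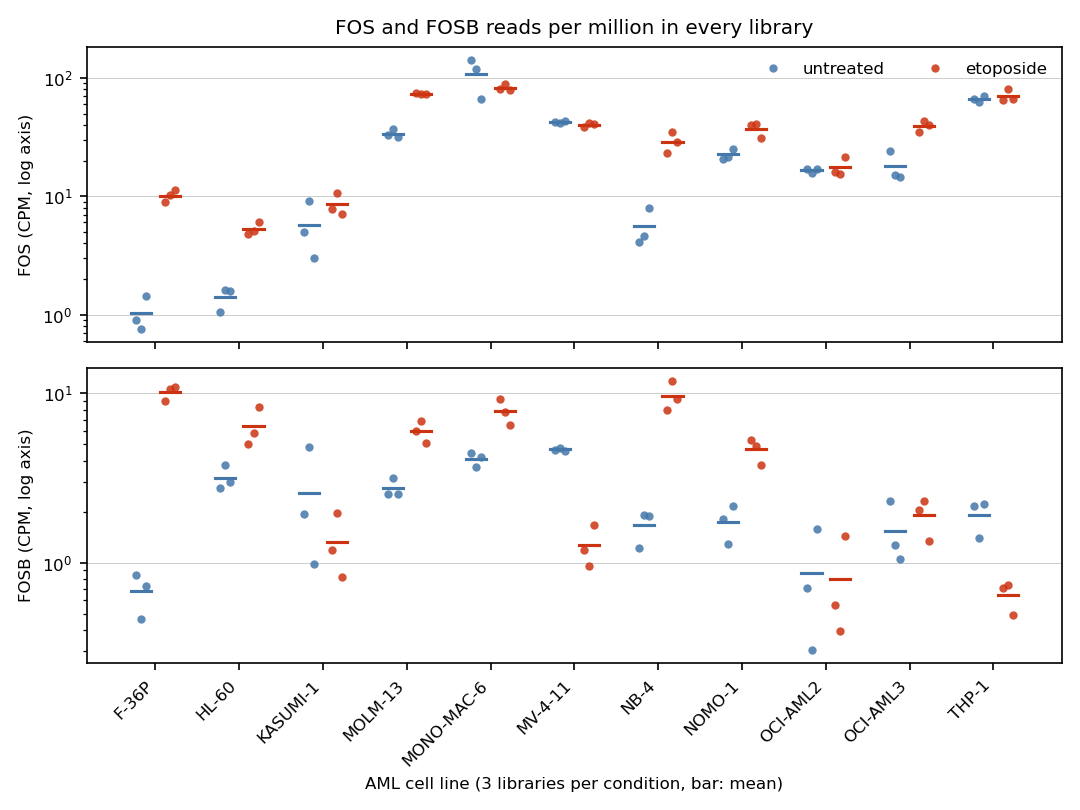
FOS (top) and FOSB (bottom) in CPM on a log axis, by AML cell line, with 1 dot per library, blue for untreated and red for etoposide, and a bar at the mean of 3. Both genes rise in F-36P and NB-4, and in MV-4-11 and THP-1 FOSB falls while FOS stays within or near its untreated range.

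FOSL1 and FOSL2, Fos proteins that lack the transactivation domain of FOS and FOSB, rarely passed the 2-fold minimum. FOSL2 was induced in HL-60, from 28.1, 37.1 and 29.9 to 93.1, 82.1 and 117 CPM (log2 fold change 1.62, SE 0.14, adjusted p = 4.84e-06), and in F-36P, from 26.7, 22.7 and 22.3 to 45.1, 45.7 and 55.6 CPM (log2 fold change 1.03, SE 0.14, adjusted p = 0.000133). The F-36P call stood at the threshold and was lost with RLE factors, with DESeq2 and without untreated replicate 2, untreated replicate 3 or etoposide replicate 3, at 0.83 to 0.97. KASUMI-1 went the other way, from 193, 182 and 188 to 108, 98 and 95.3 CPM (log2 fold change -0.90, SE 0.08, adjusted p = 1.05e-05), below the fold minimum. MONO-MAC-6, with the most FOSL2, had 374, 403 and 399 CPM untreated and 372, 394 and 385 CPM with etoposide (log2 fold change -0.03, SE 0.04, adjusted p = 0.557), with overlap.

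FOSL1 was called induced in 0 lines by edgeR, by its exact test and by DESeq2, and edgeR gave 4 lines higher and 4 lower at an unadjusted p below 0.05. It was repressed in KASUMI-1, from 6.45, 9.41 and 8.93 to 1.92, 2.76 and 2.58 CPM (log2 fold change -1.77, SE 0.20, adjusted p = 4.7e-05). NOMO-1 was lower as well, at 8.74, 8.48 and 8.97 CPM untreated and 5.08, 4.93 and 5.56 CPM with etoposide (log2 fold change -0.75, SE 0.13, adjusted p = 0.000375), without reaching the fold minimum. OCI-AML3 was higher, at 10.5, 10.6 and 11 CPM untreated and 15.5, 18 and 18.8 CPM with etoposide (log2 fold change 0.70, SE 0.10, adjusted p = 0.000945). FOSL1 also passed the FDR below the fold minimum in HL-60 (0.66), MOLM-13 (0.38), MV-4-11 (-0.28) and NB-4 (-0.50), so its changes had both signs.

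BATF, a member best known for its partnership with JUN and IRF proteins in lymphoid and dendritic cells, was induced in 0 of the 9 lines tested by edgeR, by its exact test and by DESeq2, with 1 line higher at an unadjusted p below 0.05. It was repressed in KASUMI-1, from 7.21, 7.15 and 8.44 to 3.37, 4.05 and 3.45 CPM (log2 fold change -1.07, SE 0.14, adjusted p = 0.000145), and that call was lost without untreated replicate 3 and under library size alone, at -0.98 to -0.90. In the other 8 lines tested the log2 fold change lay between -0.14 and 0.27. F-36P had too few reads to be tested, 1 in the 3 untreated libraries together and 21 in the treated ones. The ratio, scaled to library size, was 21.3 with an exact 95% interval of 3.43 to 882, which covers counting error only.

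Over the 10 lines, ATF3 had the largest mean change and FOSL1 none that was detected. In a joint edgeR fit of the 60 libraries, the mean log2 fold change was 2.59, SE 0.07, adjusted p = 4.25e-36 for ATF3 and 1.84, SE 0.10, adjusted p = 3.56e-22 for JUN. It was 1.11, SE 0.08, adjusted p = 4.91e-19 for FOS and 0.71, SE 0.10, adjusted p = 2.85e-08 for FOSB. JUND had 0.75, SE 0.06, adjusted p = 3.44e-15, JUNB 0.67, SE 0.07, adjusted p = 3.42e-13 and FOSL2 0.41, SE 0.03, adjusted p = 2.69e-15. The means of FOSL1 and BATF were -0.06, SE 0.05, adjusted p = 0.361 and 0.36, SE 0.10, adjusted p = 0.00121. Of the 9 genes 8 passed an FDR of 0.05 upward, as did 31.7% of the 19974 genes tested, and 0 passed downward, as against 24.1%. The BATF mean rested on the sparse F-36P counts and was -0.03 without that line, and without it FOSL1 passed downward at -0.13 (adjusted p = 0.0106).

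The etoposide change differed between lines for 9 of the 9 genes by the test of line by treatment interaction, and so it did for 74.5% of all genes tested. The adjusted p ran from 1.13e-19 for ATF3 to 0.000906 for JUND. Each line was then set against the mean of the other 9. Of 90 such differences 24 were higher and 23 lower at an FDR below 0.05. F-36P had 7 higher, BATF with its few reads included, where 15.9% of all genes were higher, with FOSB ahead (difference 3.59, SE 0.36, adjusted p = 4.29e-12), and JUND lower, where 17.6% of all genes were lower (difference -0.80, SE 0.21, adjusted p = 0.00175). HL-60 had 4 higher, against 9.52%, with FOSL2 at 1.38, SE 0.12, adjusted p = 1.08e-12, and 0 lower, against 7.55%. NB-4 had 3 higher, against 10.5%, all of them Fos genes, and 2 lower, against 9.05%, namely FOSL1 and JUNB.

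KASUMI-1 and MV-4-11 had differences in one direction, downward. KASUMI-1 had 5 lower, FOSB, FOSL1, FOSL2, ATF3 and BATF, against 14.6% of all genes, with FOSL1 at -1.85, SE 0.18, adjusted p = 8.36e-12, and 0 higher, against 15.3%. MV-4-11 had 6 lower, against 5.45%, with FOSB at -2.82, SE 0.32, adjusted p = 2.48e-09 and ATF3 at -1.81, SE 0.23, adjusted p = 2.56e-08, and 0 higher, against 7.75%. MOLM-13 had 3 lower, against 12.6%, and FOSL1 higher, against 12.4%. MONO-MAC-6 had 3 lower, against 11.1%, with FOS at -1.66, SE 0.21, adjusted p = 2.19e-08, and JUNB higher, against 4.71%. NOMO-1 had JUN, JUNB and ATF3 higher, against 8.74%, and FOSL1 lower, against 15.1%, and OCI-AML3 had FOSL1 higher, against 6.73%, and 0 lower, against 9.81%. THP-1 had differences in both directions, with FOSL1, JUN, JUND and ATF3 higher, against 11%, and FOS and FOSB lower, against 14.2%, with JUN at 1.55, SE 0.25, adjusted p = 2.55e-06 and FOSB at -2.48, SE 0.41, adjusted p = 4.01e-06.

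Per kilobase of annotated exon, JUND and JUNB made up most of the AP-1 sum in several lines, and JUN gained share with etoposide in 9 of the 10 lines. The length was that of all annotated exons of a gene joined, 3998 bases for ATF3, 3186 for FOS, 1929 for JUND and 1830 for JUNB. A gene whose expressed transcript is shorter than this comes out too low, so shares of different genes compare only roughly. Untreated, the 9 genes summed to 60.1 ± 10.2 CPM per kb in HL-60 (SD, n = 3) and 205 ± 18.9 in MOLM-13, the lowest and highest totals. With etoposide HL-60 reached 165 ± 47.3, 2.75-fold its untreated mean, and NOMO-1 went from 109 ± 6.93 to 231 ± 27.5. MV-4-11 went from 153 ± 9.46 to 173 ± 13.9 and OCI-AML2 from 104 ± 4.26 to 99.9 ± 13.1. The share of JUN went from 3.15% to 17% in THP-1, from 5.73% to 19.6% in NOMO-1 and from 4.66% to 16.9% in KASUMI-1, and the share of ATF3 in HL-60 from 4.36% to 21%. FOS went from 18.8% to 9.34% of the total in MONO-MAC-6. These shares are a description with no test.

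**Figure D3:**
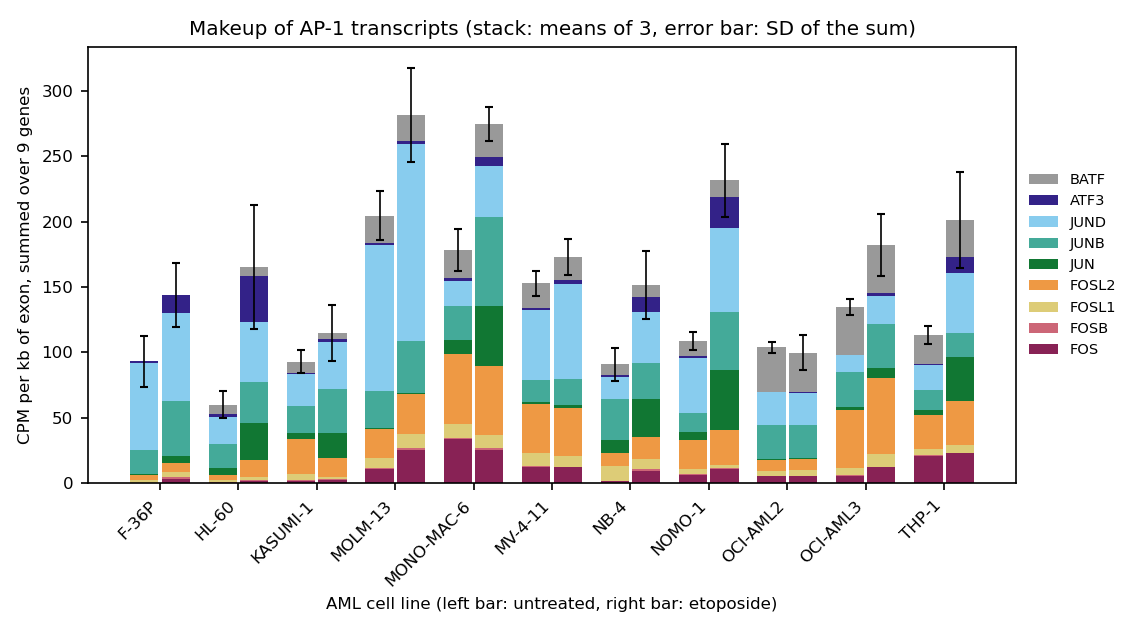
Stacked mean levels of the 9 AP-1 genes in CPM per kilobase of exon, for untreated (left bar) and etoposide-treated (right bar) libraries of each AML cell line, with the SD of the summed level over 3 libraries as error bar. The JUN and ATF3 blocks widen with etoposide in HL-60, NOMO-1 and THP-1, JUND dominates MOLM-13 and F-36P, and the OCI-AML2 bars are alike in height.

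At rest the lines differed for 9 of the 9 AP-1 genes over the 33 untreated libraries (omnibus test in edgeR, FDR below 0.05), as they did for 99.4% of 18130 genes. Levels in this and the next paragraphs are CPM with scaling factors shared by the untreated libraries, and they differ slightly from those given within lines. FOS spanned the widest range among the genes with reads in every line. MONO-MAC-6 had 135, 113 and 63.7 CPM, a mean of 104 ± 36.6 (SD, n = 3), and F-36P 0.891, 0.705 and 1.32 CPM, a mean of 0.972 ± 0.315. In between came THP-1 (64.5 ± 3.75), MV-4-11 (39.6 ± 0.962), MOLM-13 (35 ± 2.85), NOMO-1 (20.2 ± 2.08), OCI-AML3 (17.8 ± 5.48), OCI-AML2 (16.5 ± 0.649), KASUMI-1 (5.73 ± 3.13), NB-4 (5.28 ± 2.01) and HL-60 (1.32 ± 0.298). Of the 10 neighbouring pairs in that order 5 differed, MONO-MAC-6 from THP-1, THP-1 from MV-4-11, MOLM-13 from NOMO-1, OCI-AML2 from KASUMI-1 and NB-4 from HL-60, so NOMO-1, OCI-AML3 and OCI-AML2 were not told apart, nor were KASUMI-1 and NB-4 or HL-60 and F-36P. Any 2 lines of the panel differed in 50.5% to 76.6% of all genes, with a median of 67.2% over 55 pairs. Neighbours have the closest means of a gene, so by construction they differ less often than any 2 lines. These shares are therefore no like background for the counts of neighbouring pairs, and a share of neighbours over all genes was not computed. For example, 71.7% differed between F-36P and HL-60 and 72.1% between F-36P and MOLM-13.

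FOSL2, with the highest counts, was ordered most finely, and 8 of its 10 neighbouring pairs differed. It ran from 377 ± 15.1 CPM in MONO-MAC-6 through OCI-AML3 (314 ± 15.9), MV-4-11 (259 ± 1.11), KASUMI-1 (188 ± 6.1), THP-1 (179 ± 4.85), MOLM-13 (154 ± 8.37), NOMO-1 (152 ± 10.2), NB-4 (69.2 ± 11.5), OCI-AML2 (56.7 ± 3.52) and HL-60 (29.6 ± 4.52) to F-36P (22.7 ± 3.28). The steps from KASUMI-1 to THP-1 and from MOLM-13 to NOMO-1 did not pass. F-36P, HL-60 and NB-4, the 3 lines in which FOS rose most, had the lowest 3 FOS means, though NB-4 was not told apart from KASUMI-1. They were among the lowest 4 for FOSL2. FOSL1 ran from 20.2 ± 3.02 CPM in NB-4, 19.9 ± 1.48 in MONO-MAC-6, 18.3 ± 1.35 in MV-4-11 and 15 ± 0.159 in MOLM-13, through 5 lines from OCI-AML3 (10.6 ± 0.22) and THP-1 (9.44 ± 1.22) over KASUMI-1 (8.28 ± 1.6) and NOMO-1 (7.81 ± 0.188) to OCI-AML2 (7.41 ± 0.686), down to F-36P (4.44 ± 0.647) and HL-60 (2.28 ± 0.247). For FOSL1 4 neighbouring pairs differed, and no step among the 5 lines from OCI-AML3 to OCI-AML2 passed.

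FOSB was low throughout, and 0 of its 10 neighbouring pairs differed by edgeR. It ran from 4.36 ± 0.0869 CPM in MV-4-11 and 3.95 ± 0.378 in MONO-MAC-6 over HL-60 (2.97 ± 0.495), MOLM-13 (2.86 ± 0.373), KASUMI-1 (2.58 ± 1.99), THP-1 (1.87 ± 0.456), NB-4 (1.59 ± 0.37), NOMO-1 (1.56 ± 0.386), OCI-AML3 (1.53 ± 0.669) and OCI-AML2 (0.864 ± 0.647) to F-36P (0.643 ± 0.201). MV-4-11, with the highest FOSB mean at rest, had the largest fall, and F-36P, with the lowest mean, the largest rise. The resting level is the denominator of the fold change, so such a link is partly built in. MONO-MAC-6 and HL-60, next to MV-4-11 in the order, both had more FOSB with etoposide.

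Among the Jun genes, JUN ran from 35.6 ± 3.21 CPM in MONO-MAC-6 and 35 ± 14.1 in NB-4, over NOMO-1 (21.7 ± 3.96), HL-60 (18 ± 4.33), KASUMI-1 (15.2 ± 1.26) and THP-1 (12.6 ± 2.76), to OCI-AML3 (6.97 ± 0.368), MV-4-11 (4.89 ± 0.717), F-36P (3.71 ± 0.517), OCI-AML2 (3.2 ± 0.473) and MOLM-13 (2.28 ± 1.35). The steps from NB-4 to NOMO-1 and from THP-1 to OCI-AML3 passed the test and the other 8 did not. JUND had nearly the reverse order at its ends, with MOLM-13 highest at 213 ± 29.8 CPM, then F-36P (124 ± 27), MV-4-11 (101 ± 13.1) and NOMO-1 (78.4 ± 9.23), and a lower group of OCI-AML2 (46.2 ± 4.82), KASUMI-1 (44.8 ± 6.99), HL-60 (38.3 ± 6.66), THP-1 (36.1 ± 5.16), MONO-MAC-6 (35.6 ± 8.37), NB-4 (31.6 ± 4.41) and OCI-AML3 (24.4 ± 3.38) within which neighbours did not differ. The steps that passed for JUND numbered 3, MOLM-13 to F-36P, MV-4-11 to NOMO-1 and NOMO-1 to OCI-AML2. Over the 11 lines the untreated levels of JUN and JUND had a Pearson r of -0.617 on log2(CPM + 1), as a description. JUNB varied least, from 56.7 ± 4.74 CPM in NB-4 to 25 ± 1.33 in NOMO-1, a 2.27-fold range, with 50.9 ± 3.89 in MOLM-13, 48.5 ± 5.15 in OCI-AML3, 47.4 ± 13.1 in MONO-MAC-6, 46.3 ± 4.56 in OCI-AML2, 37 ± 7.23 in KASUMI-1, 33.8 ± 7.94 in HL-60, 32.8 ± 7.03 in F-36P, 30.4 ± 2.21 in MV-4-11 and 27.2 ± 4.69 in THP-1, and 0 of its neighbouring pairs differed.

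ATF3 at rest was low everywhere, from 10.3 ± 2.14 CPM in HL-60, 8.09 ± 1.17 in MONO-MAC-6 and 7.21 ± 2.54 in NB-4, over MOLM-13 (6.4 ± 1.36), MV-4-11 (6.16 ± 0.746), KASUMI-1 (4.41 ± 0.223), F-36P (4.18 ± 0.517) and NOMO-1 (4.01 ± 0.492), to OCI-AML2 (2.35 ± 0.469), THP-1 (2.09 ± 0.142) and OCI-AML3 (1.19 ± 0.21). For ATF3 3 neighbouring pairs differed, MV-4-11 from KASUMI-1, NOMO-1 from OCI-AML2 and THP-1 from OCI-AML3. BATF was highest in the OCI-AML lines, at 33.2 ± 2.21 CPM in OCI-AML3 and 30.5 ± 0.598 in OCI-AML2, a step that did not pass. THP-1 (20.2 ± 0.909), MONO-MAC-6 (19.4 ± 2.2), MOLM-13 (19.1 ± 1.41) and MV-4-11 (16.9 ± 1.23) followed without a detected step between neighbours, then NOMO-1 (10.5 ± 1.13), KASUMI-1 (7.62 ± 0.787), NB-4 (7.17 ± 0.851) and HL-60 (6.2 ± 0.637). F-36P had 1 BATF read in 3 untreated libraries.

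**Figure D4:**
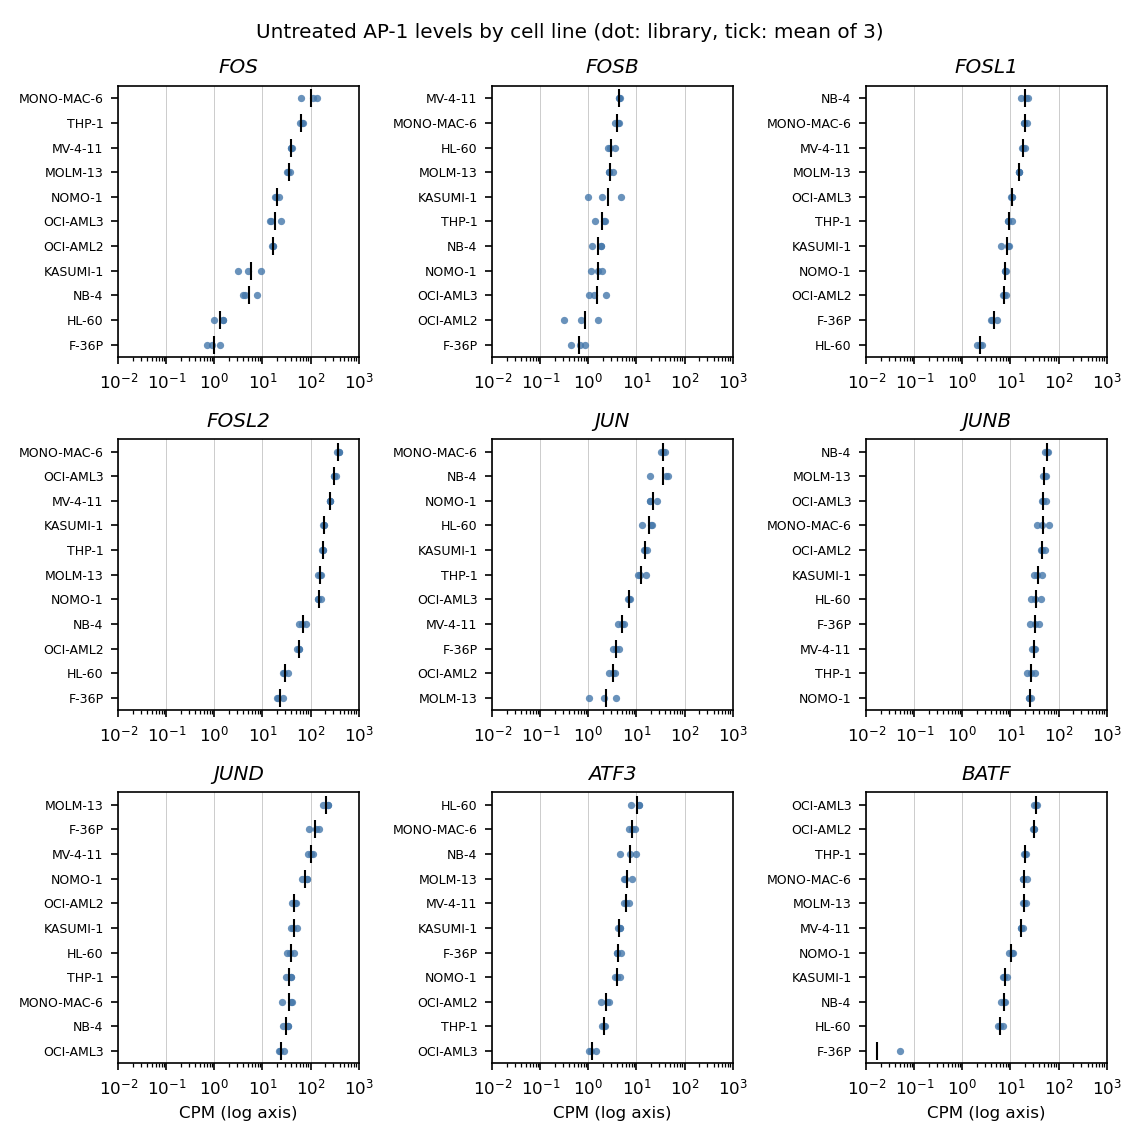
Untreated levels of the 9 AP-1 genes in CPM on a shared log axis, with lines ordered by mean within each panel, 1 dot per library and a tick at the mean of 3; libraries with no read, 2 for BATF in F-36P, are not drawn. FOS spans from 0.972 to 104 CPM, JUNB stays within a 2.27-fold range, and F-36P is lowest for FOS, FOSB, FOSL2 and BATF.

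Genes around AP-1 were taken from 4 lists. Of 20 dimer partners and related leucine zipper genes, 39 of 177 gene and line pairs were induced (22%) and 2 repressed, beside 11.1% and 3.96% of all genes. DDIT3, the stress factor CHOP, was induced in 7 of 10 lines, up to 2.57 in THP-1 and 2.46 in NOMO-1 on the log2 scale, but stood at -0.09 (adjusted p = 0.554) in MV-4-11. BATF2 was induced in 5 of 7 lines, with 3.67 in F-36P and 3.65 in MV-4-11, and MAFF in 5 of 10, with 1.77 in NOMO-1.

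Of 18 upstream kinases and transcription factors, 8 of 171 pairs were induced (4.68%) and 5 repressed (2.92%), both below the share of all genes. MAPK11, the p38 beta kinase, accounted for 6 of the 8, with 2.45 in F-36P. MEF2D, which binds and drives the JUN promoter, was lower in MONO-MAC-6 (-1.32), NOMO-1 (-1.29) and NB-4 (-1.12), 3 lines with more JUN. MEF2C was repressed in F-36P (-1.57) and induced in NB-4, and MAPK10, the neuronal JNK, was tested in 2 lines and induced in NB-4 (2.47). MAPK8 and MAPK9, the JNK genes most cells express, singled out here after their values were seen, lay between -0.46 and 0.20 and between -0.36 and 0.19.

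The dual specificity phosphatases that switch off JNK, p38 and ERK rose more often. Of 8 genes, 32 of 71 pairs were induced (45.1%) and 2 repressed (2.82%), beside 11.1% and 3.96% of all genes. DUSP4 was induced in 7 lines, with 3.36 in MOLM-13, and repressed in KASUMI-1 (-1.11). DUSP5 was induced in 7 lines and DUSP1 in 5, with 3.23 in NOMO-1 and 2.44 in MONO-MAC-6, while DUSP1 in MV-4-11 stood at -0.35 (adjusted p = 0.104). DUSP8 had enough reads in 4 lines and was induced in all 4, HL-60, MONO-MAC-6, NOMO-1 and THP-1, with log2 fold changes of 2.54 to 7.08. A gene with few untreated reads can enter the test through the etoposide libraries alone. The DUSP8 calls are therefore partly fixed by the read minimum, and they count in the 45.1%. The same limit applies to genes of the other lists with few untreated reads.

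Of 20 textbook AP-1 target genes, 59 of 143 pairs were induced (41.3%) and 1 repressed (0.699%), beside the same 11.1% and 3.96%, and MMP3 and IL2 were tested in no line. CXCL8, which encodes interleukin 8, was induced in 10 of 10 lines. In HL-60 it went from 15.7, 13.3 and 17.7 CPM to 423, 313 and 720.3 CPM (log2 fold change 4.96, SE 0.26, adjusted p = 1.49e-07). In MV-4-11 it went from 1.21, 2.05 and 1.51 to 9.28, 6.98 and 7.98 CPM (log2 fold change 2.35, SE 0.19, adjusted p = 4.1e-10), and in MOLM-13 from 7.81, 9.94 and 9.51 to 54.8, 51 and 44.5 CPM (log2 fold change 2.46, SE 0.12, adjusted p = 4.82e-07). The part of AP-1 genes in the CXCL8 rise was not tested. HMOX1, heme oxygenase, was induced in 8 of 9 lines, with 4.96 in KASUMI-1. HBEGF, a growth factor, was induced in 8 of 10, with 4.29 in F-36P. IL1B was induced in 7 of 9, with 4.67 in NB-4 and 4.35 in MV-4-11, and stood at -0.54 in F-36P (adjusted p = 0.0169). The counts describe these lists, and these genes have many regulators besides AP-1.

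For each AP-1 gene the 2 genes with the most similar changes over the 10 lines were named, out of 14074 with a mean of at least 1 CPM. They were TIPRL (Pearson r = 0.956) and PSMC4 (0.949) for ATF3, CENPW (0.95) and ACTL6A (0.948) for JUN, FBXO33 (0.887) and LEMD3 (0.885) for JUNB, and BRMS1 (0.943) and ELP5 (0.931) for JUND. For the Fos genes they were ATP6AP1-DT (0.93) and ATG9B (0.911) for FOS, L3MBTL3 (0.912) and KLHL13 (0.899) for FOSB, LRP8 (0.959) and MSTO1 (0.922) for FOSL1, and KCNH4 (0.916) and CSNK1E (0.866) for FOSL2. For BATF they were MFSD2A (0.984) and EVC (0.983). The BATF change of F-36P used here, 3.83, rested on counts of 1 and 21 reads, and the other lines lay between -1.02 and 0.31. These BATF values therefore depend on F-36P. For untreated levels over 11 lines, out of 13669 genes, the closest were MILR1 (0.96) and STK32C (0.929) for FOS, ALKBH3 (0.895) and ADGRL1-AS1 (0.889) for FOSB, PLEKHF1 (0.903) and TMCO4 (0.902) for FOSL1, and INF2 (0.939) and LRRC8C (0.907) for FOSL2. They were STX17 (0.903) and PCGF3-AS1 (0.883) for JUN, CD9 (0.843) and TUBA1C (0.828) for JUNB, LENG1 (0.91) and ENSG00000270055 (0.902) for JUND, EBP (0.898) and HNRNPA1L2 (0.88) for ATF3, and LYST (0.974) and NLRP3 (0.971) for BATF. The untreated BATF values also include F-36P, which had 1 BATF read. Each gene was picked as the highest among all these genes over few lines, so these values are descriptions.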

How the data were processed

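Gene counts of 66 polyA RNA-seq libraries (11 AML cell lines, untreated or etoposide-treated, 3 libraries each) were used as the authors deposited them: raw read counts per gene, made with STAR 2.5.3a on GRCh38.p7 with gencode annotation, after FastQC 0.11.5, per the submitters' processing notes and the study's methods, which also name edgeR 3.20.1. Which strand setting was used in counting is not given in the sources used here. Identifiers were matched by stable ID to gencode release 44, which named 56948 of 57992, and 45 pseudoautosomal copies with 0 reads were left out. Total reads on genes per library, 17997404 to 24101670, set the precision, and intervals cover counting error only. No pair of libraries of a group held identical values or agreed within sampling noise (66 pairs, chi-square per gene of 1.89 or more).

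Counts were tested with the quasi-likelihood test of edgeR 4.0.16 (R 4.3.3; filterByExpr with a minimum count of 10 and total of 15, TMM factors, Benjamini-Hochberg adjustment over all genes tested), per line, and in joint fits of 60 libraries without OCI-AML2 and of the 33 untreated libraries. Induced and repressed mean an FDR below 0.05 with a fold change above 2. The steps were tested on simulated data. CPM and CPM per kb (length of all exons of a gene joined, from gencode 44) describe levels. Alternatives were the edgeR exact test, DESeq2 1.42.0, limma-trend (limma 3.58.1), RLE factors, library size alone, other low-count filters, no fold minimum, a replicate block, other sets of lines and leaving out libraries. Libraries sharing a replicate number in both conditions deviated together in NB-4 (r = 0.265, 0.22 and 0.152), where every correlation exceeded 0.1, and not in all 3 pairs of any other line. The main tests used no pairing in any line, NB-4 included, and the replicate block was run only as an alternative. The genes named are the 9 AP-1 genes, up to 4 genes per list called in the most lines, the 2 genes most like each AP-1 gene (mean of at least 1 CPM), and CDKN1A and MDM2, apart from items that are not reported here. The AP-1 genes, lists and markers were chosen with earlier results of these data known. Promoter windows were taken from RefSeq (GRCh38.p14) and searched for TGANTCA, TGACGTCA, TGACATCA and TGACGTTT on both strands. Figures were drawn with matplotlib 3.10.9.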

Additional observations from a re-analysis of the deposited data

Results flagged for a closer look

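The etoposide change differed between the 10 cell lines for each of the 9 AP-1 genes, by the test of the line by treatment interaction in edgeR over 60 libraries, which 74.5% of all genes also passed. The adjusted p was 1.13e-19 for ATF3, 1.22e-17 for FOSL2, 5.59e-16 for FOSB, 1.8e-13 for FOS and 1.98e-13 for FOSL1. It was 3.22e-10 for JUN, 6.13e-07 for BATF, 1.46e-06 for JUNB and 0.000906 for JUND. The within-line log2 fold changes ran from -1.88 in MV-4-11 to 3.89 in F-36P for FOSB, from -1.25 in MOLM-13 to 3.19 in THP-1 for JUN, and from 0.49 in MOLM-13 to 4.50 in NOMO-1 for ATF3. For JUND they ran from -0.01 in F-36P to 1.22 in THP-1. Doses differed between lines, so line and dose cannot be told apart. Groups of 3 libraries are too small for a test of single outlying samples, and none was made.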

How the results depend on the processing

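Of 1591 values of an AP-1 gene in a line under an alternative, 1522 kept their side of the threshold, 35 lost a call, 34 gained one and 0 reversed a call. Of the 40 calls 29 held under every alternative run. AP-1 inductions numbered 31 to 36 and repressions 3 to 5 when replicates were left out, the 3 arising without replicate 3, and all genes 15694 to 16314 and 5594 to 6375. The differences of a line from the others that passed numbered 19 to 21 in each direction, the neighbouring untreated pairs 21 to 29, and the interaction and the untreated omnibus test passed for 9 of 9. With no fold minimum AP-1 genes had 56 inductions and 9 repressions and all genes 39624 and 34930, dimer partners 80 and 26, targets 102 and 12, kinases 26 and 52, and phosphatases 7 repressions. With no filter beyond 1 read 24221 inductions were called over all genes. Where genes had to average 5 CPM there were 6081 inductions and 2716 repressions over all genes, and 1 AP-1 repression. Of the 4 AP-1 repressions lost there, 3 were no longer tested, and BATF in KASUMI-1 was tested and missed the fold minimum. With library size alone 1 phosphatase and 3 kinase pairs were repressed. Without F-36P the BATF mean change was -0.028 in place of 0.36, the BATF change of THP-1 minus the others 0.40 in place of -0.05, and 1 AP-1 gene, FOSL1, passed downward; the BATF values rested on F-36P counts of 1 and 21 reads.

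With the replicate number as a block, 34 AP-1 inductions and 5 repressions were called, and over all genes 15752 and 5682. The 1 AP-1 call it changed was FOSB in HL-60, at 0.99. Besides NB-4, every library of MV-4-11 and OCI-AML2 correlated best with its own number, which is a hint from the data and not part of the design. Depth limited FOSB, with a median of 45.5 reads per library, and BATF in F-36P.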

Other observations

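Libraries of 1 group varied together in some AP-1 genes. The deviations from the group mean of log2(CPM + 1) over 66 libraries had a Pearson r of 0.861 for JUNB and JUND, 0.691 for FOS and FOSB and 0.675 for JUN and ATF3, and the lowest of the pairs was ATF3 with BATF at -0.114. The etoposide changes of FOS and JUN over the 10 lines had an r of -0.0059, whereas those of FOSL1 and FOSL2 had 0.758. Untreated levels over 11 lines had an r of 0.823 for FOS and FOSL2 and 0.755 for FOS and BATF, the latter with F-36P at 1 BATF read. These correlations are descriptions, since genes in a library share its depth and scaling.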
